A study of Homo sapiens with 3 samples.

Results

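The miR-28 family of MV4-11 cells was read out from small RNA sequencing. Its members were taken by name, as the hairpins hsa-mir-28, hsa-mir-151a, hsa-mir-151b and hsa-mir-708 and every mature arm of them. All 4 hairpins were among the 661 listed primary transcripts, and they gave 7 of the 783 mature miRNA names. MV4-11 is a human acute myeloid leukemia line with a FLT3 internal tandem duplication and an MLL-AF4 fusion, labelled WT in genotype. There was 1 group of 3 replicate libraries, all from cells that had carried the EV (empty vector) form of a lentiviral CRISPR-Cas9 construct for 2 weeks, so no control or treated group could be compared. The sources used here do not say whether the replicates came from separate cultures, so p-values measure only the spread between these libraries, which may be technical. RNA came from many cells at once, so the number of cells with a miRNA and the amount per cell cannot be told apart.

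A miRNA gene is transcribed into a hairpin that Drosha and Dicer trim to a short duplex, and an Argonaute protein keeps a strand of it, from the 5p or the 3p side. The kept strand finds its targets mainly through its seed, which is bases 2 to 8. Hairpins of the miR-28 family are held to descend from LINE-2 transposable elements. miR-28 has been described as a growth suppressor lost in B-cell lymphoma. miR-151a has been tied to cell migration together with its host gene, and its primary transcript is a known substrate of ADAR editing, which counts per arm do not show. miR-708-5p carries the same seed as miR-28-5p, and miR-151b resembles the 5p arm of miR-151a.

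The mature sequences of 3 of the 7 arms were matched in RefSeq (GRCh38.p14). They are shown to compare their seeds, which are in capitals.
miR-28-3p: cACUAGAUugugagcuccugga
miR-708-3p: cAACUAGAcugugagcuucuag
miR-708-5p: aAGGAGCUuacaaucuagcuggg
miR-28-3p lies at chr3:188688834-188688855 on the plus strand. miR-708-3p lies at chr11:79402032-79402053 and miR-708-5p at chr11:79402077-79402099, both on the minus strand. The 3p arms of miR-28 and miR-708 are much alike. With miR-28-3p set 1 base further along miR-708-3p, 17 of 21 aligned bases were identical, and their longest shared run was UGUGAGCU. The same shift moves the seed, so these arms do not carry the same bases 2 to 8. Among the other mature miRNAs of the RefSeq table used, which does not hold every member arm, none had the seed of miR-28-3p or of miR-708-3p, and miR-3139, which had no row in the mature table, had that of miR-708-5p. Sequences of miR-28-5p, miR-151a-5p, miR-151a-3p and miR-151b are not shown.

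The hairpins were placed in their host genes with the GENCODE release 29 annotation of GRCh38. MIR28 (ENSG00000207651.1) is a plus-strand gene of chromosome 3 (188688781 to 188688866) inside LPP, which encodes a focal adhesion protein. In the coding transcript of LPP with the most exonic bases it sat in intron 6 of 10, which is 98422 bases long, 78936 bases after the exon before it. MIR151A (ENSG00000254324.3), a minus-strand gene of chromosome 8 (140732564 to 140732653), sat in intron 22 of 31 of PTK2, the gene of focal adhesion kinase. That intron spans 17541 bases, and the hairpin starts 2597 bases after the exon before it. MIR708 (ENSG00000211997.1), a minus-strand gene of chromosome 11 (79402022 to 79402109), was in intron 1 of 33 of TENM4, a teneurin gene. None of these 3 hairpins overlapped an annotated exon of its host. MIR151B (ENSG00000265154.1), a minus-strand gene of chromosome 14 (100109419 to 100109514), had no protein-coding host on its own strand, and lay opposite EVL without overlapping an exon of it. Of the 650 hairpins that matched the annotation, 312 (48.0%) lay, like the first 3, in an intron of a protein-coding gene on their strand, so intronic position is common and does not set the family apart. The host mRNAs were not measured in these libraries.

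The libraries held 12694823, 10991953 and 11682129 counts in mature rows in replicates 1, 2 and 3. Intervals below are Wilson 95% intervals, and they cover counting error only, since the reads carry no molecular identifiers. All 5 fixed markers of white blood cells were listed, with a summed level of 1612260 to 2790976 FPKM per library (counts scaled to feature length and library size). Of 8 markers of liver, muscle, epithelium and stroma, 6 were listed, with a summed level of 21320 to 22399 FPKM. Most of that sum was miR-143-3p and miR-200c-3p. In replicates 1, 2 and 3 miR-143-3p had 16964, 12529 and 11425 FPKM, and miR-200c-3p had 4167, 7314 and 7656. The 2 erythroid markers summed to 91.4 to 214 FPKM. Replicate 1 stood apart. For the 330 miRNAs that reached 100 counts in each library, the median log2 ratio of FPKM was 0.42 for replicate 2 to 1, 0.51 for replicate 3 to 1 and 0.10 for replicate 3 to 2.

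The hsa-mir-151a and hsa-mir-28 hairpins made up nearly all of the family's level, with hsa-mir-151a the higher in each library. FPKM of the hsa-mir-151a hairpin was 28015, 23007 and 19459 in replicates 1, 2 and 3, a mean of 23494 ± 4298 (SD, n = 3), and it ranked 66 of 661 hairpins. FPKM of hsa-mir-28 was 3679, 6087 and 7462, a mean of 5742 ± 1915 (SD, n = 3) at rank 104. The ranges of these 2 hairpins did not overlap. hsa-mir-708 followed with 326, 543 and 323 FPKM, a mean of 397 ± 126 (SD, n = 3) at rank 217. hsa-mir-151b had 15.7, 7.64 and 19.8 FPKM, a mean of 14.4 ± 6.17 (SD, n = 3) at rank 552. Of the summed FPKM of the 4 hairpins, hsa-mir-151a gave 78.8% ± 8.10, hsa-mir-28 19.8% ± 7.97, hsa-mir-708 1.34% ± 0.430 and hsa-mir-151b 0.0491% ± 0.0234 (SD, n = 3). Among the 312 intronic hairpins, whose median was 72.0 FPKM, hsa-mir-151a ranked 26, hsa-mir-28 40 and hsa-mir-708 95. hsa-mir-95, another hairpin held to descend from a LINE-2 element, was far lower, at 29.4 ± 5.30 FPKM (SD, n = 3) from 35, 21 and 28 counts.

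**Figure D1:**
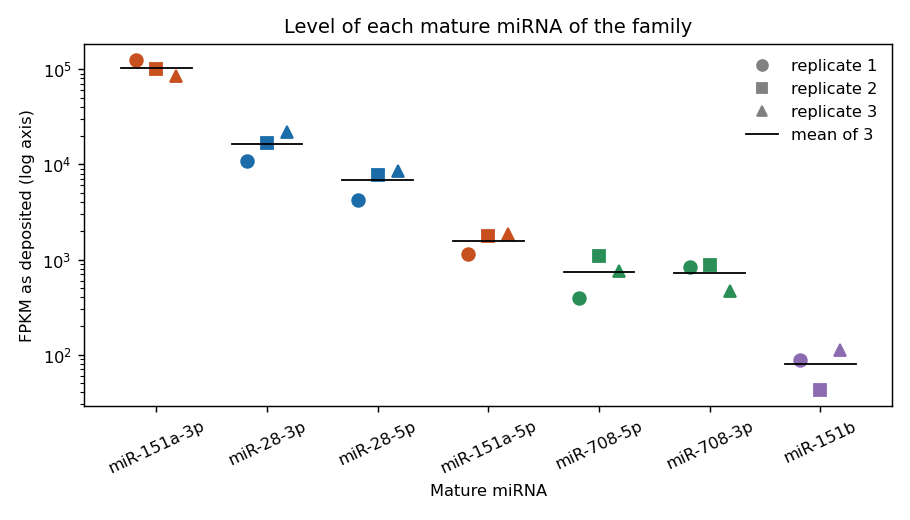
Deposited FPKM (log axis) of the 7 mature miRNAs of the family in the 3 replicate libraries, with the mean as a black line. miR-151a-3p is the highest at a mean of 103204 FPKM and miR-151b the lowest at 80.5, and only the 2 arms of miR-708 overlap in range with their neighbour.

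At the level of arms the order was set by the 3p strands of miR-151a and miR-28. miR-151a-3p had 31436, 22183 and 19850 counts in replicates 1, 2 and 3, which were 123789, 100884 and 84939 FPKM. Its mean was 103204 ± 19528 FPKM (SD, n = 3), and it ranked 53 of 783 mature names. It was highest in replicate 1 and lowest in replicate 3. miR-28-3p had 2866, 3899 and 5337 counts, or 10748, 16888 and 21750 FPKM, the opposite order of libraries. Its mean was 16462 ± 5513 FPKM (SD, n = 3) at rank 115. miR-28-5p, the arm with the seed that miR-708-5p shares, had 1113, 1805 and 2094 counts, or 4174, 7818 and 8534 FPKM. Its mean was 6842 ± 2338 FPKM (SD, n = 3) at rank 152.

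The remaining arms were each below both arms of miR-28 in every library. miR-151a-5p had 291, 386 and 429 counts, or 1146, 1755 and 1836 FPKM, with a mean of 1579 ± 377 (SD, n = 3) at rank 247. miR-708-5p had 109, 263 and 194 counts, or 390, 1087 and 755 FPKM, with a mean of 744 ± 349 (SD, n = 3) at rank 309. miR-708-3p had 224, 204 and 114 counts, or 840, 884 and 465 FPKM, with a mean of 729 ± 230 (SD, n = 3) at rank 312. miR-708-5p was lowest in replicate 1 and miR-708-3p in replicate 3, so that their ranges overlapped and the order of these 2 arms was not resolved. Every other pair of neighbours in the order was apart in range, with the same arm higher in 3 of 3 libraries.

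miR-151b was close to the lower limit of these tables. It had 19, 8 and 22 counts, or 88.0, 42.8 and 111 FPKM, with a mean of 80.5 ± 34.6 (SD, n = 3) at rank 563. In CPM, counts scaled to library size alone, replicate 1 had 1.497 (0.958 to 2.34), replicate 2 had 0.728 (0.369 to 1.44), and the value of replicate 3 was 1.88 (1.24 to 2.85). The intervals of all 3 libraries overlapped, and the difference between libraries was not tested. miR-151a-5p exceeded it 13.02-fold, 41.01-fold and 16.6-fold in FPKM. Because the sequences of miR-151b and miR-151a-5p are nearly alike, a short read can fit both loci, and how the authors placed such reads is not given in the sources used here. The levels of miR-151b and of miR-151a-5p are therefore uncertain.

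The shared seed of miR-28-5p and miR-708-5p was carried mostly by miR-28-5p. It exceeded miR-708-5p 10.7-fold, 7.19-fold and 11.3-fold in FPKM in replicates 1, 2 and 3. For the related 3p arms the excess of miR-28-3p over miR-708-3p was 12.8-fold, 19.1-fold and 46.8-fold. The excess of miR-28 was thus present in every library on both strands, but its size varied more between libraries for 3p, with an SD of 0.96 on the log2 scale, than for 5p, with 0.36.

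The family was compared for how each hairpin used its arms. Counts of all 195 hairpins with both arms found in every library were fitted (edgeR quasi-likelihood test with the library as a block). A hairpin here stands for a pair of arm names with rows of a name summed, and 182 of the 195 pairs had 1 row per name. An arm was called preferred at a Benjamini-Hochberg adjusted p under 0.05 and a log2 ratio of at least 1 in size. All libraries had the same NEB preparation, and whether it captured different strands equally was not tested. Ratios between arms therefore describe counts. Of all 195 hairpins, 82.1% were called, and 41.5% were called toward 3p. In the family 2 of 3 testable hairpins were called, both toward 3p. Preference for an arm was common over all hairpins, and 3 hairpins are too few to compare the share of the family with that background. hsa-mir-151b has 1 listed mature strand and could not be tested.

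As counted, hsa-mir-151a was almost entirely 3p. The 3p arm held 99.1% of 31727 arm counts in replicate 1 (99.0 to 99.2), 98.3% of 22569 in replicate 2 (98.1 to 98.5), and in replicate 3 its share was 97.9% of 20279 (97.7 to 98.1). The ratio of 3p to 5p in FPKM was 108, 57.5 and 46.3. On the log2 scale the ratio of 5p to 3p was -6.04 in the fit (edgeR adjusted p = 3.46e-05), with an SD between libraries of 0.64, and 3p was higher in 3 of 3 libraries. In size it ranked 43 of 195, between hsa-miR-22 at -6.06 and hsa-miR-148b at -5.92. Reads of miR-151a-5p that also fit miR-151b may have been placed there or dropped. The 5p counts, and the size of these shares and ratios, are uncertain to that extent.

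hsa-mir-28 kept both arms. The 3p arm held 72.0% of 3979 counts in replicate 1 (70.6 to 73.4), 68.4% of 5704 in replicate 2 (67.1 to 69.5), and in replicate 3 its share was 71.8% of 7431 (70.8 to 72.8). The ratio of 3p to 5p in FPKM was 2.58, 2.16 and 2.55. On the log2 scale the ratio of 5p to 3p was -1.28 (edgeR adjusted p = 0.00305), with 3p higher in 3 of 3 libraries. With TMM factors, another scaling of the arm columns, it was -1.92 and still called. It ranked 153 of 195 in size, against a median of 3.17 over all hairpins, next to hsa-miR-1537 at 1.29 and hsa-miR-6741 at -1.27, neither of which was called. Its SD between libraries was 0.14, where the median hairpin had 0.52, and only 8.21% of hairpins had a smaller SD. The mix of arms of hsa-mir-28 was thus among the steadier ones, while its hairpin FPKM differed 2.03-fold between the lowest and the highest library. Shifts of a whole library cancel in a ratio of arms but not in FPKM, so these spreads are unlike measures. The hairpins compared include ones with few counts of an arm, and the SD was not compared at like counts.

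**Figure D2:**
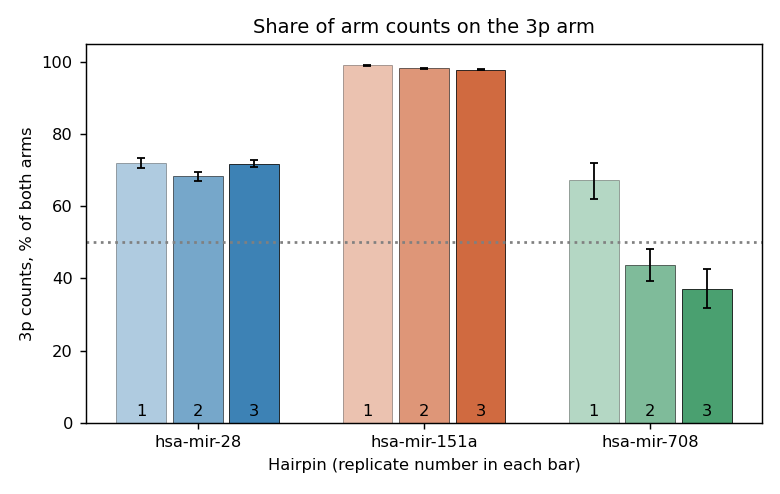
Share of arm counts on the 3p strand (y axis, percent of both arms) for hsa-mir-28, hsa-mir-151a and hsa-mir-708, with 1 bar per replicate and Wilson 95% intervals. hsa-mir-151a stays above 97% and hsa-mir-28 between 68.4% and 72.0%, while hsa-mir-708 crosses the dotted line at 50%.

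hsa-mir-708 changed its higher arm between libraries. The 3p arm held 67.3% of 333 counts in replicate 1 (62.1 to 72.1), 43.7% of 467 in replicate 2 (39.3 to 48.2), and in replicate 3 its share was 37.0% of 308 (31.8 to 42.5). The interval of replicate 1 did not overlap those of replicates 2 and 3. On the log2 scale the ratio of 5p to 3p was 0.04 in the fit and was not called (edgeR adjusted p = 0.936), with an SD between libraries of 0.95 that was larger than that of 79.5% of hairpins. Without replicate 1 it was 0.56 (edgeR adjusted p = 0.0289), under the minimum size. With TMM factors it was -0.61, toward 3p, and was not called. A change of higher arm was seen in 21 of the 195 hairpins, while 174 (89.2%) kept the same side in 3 of 3 libraries.

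**Figure D3:**
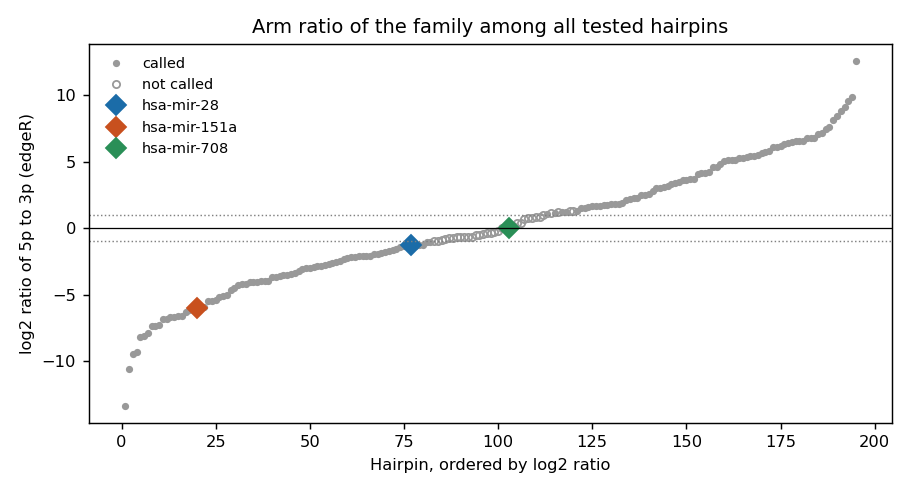
Log2 ratio of 5p to 3p from the fit (y axis) for the 195 hairpins with both arms, in order of the ratio (x axis), with called hairpins as filled and uncalled ones as open grey points. Of the 3 diamonds, hsa-mir-151a lies at -6.04, hsa-mir-28 at -1.28 just past the dotted line at -1, and hsa-mir-708 at 0.04.

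The difference in arm use between hsa-mir-28 and hsa-mir-151a was 5.39, 4.73 and 4.18 on the log2 scale in replicates 1, 2 and 3, a mean of 4.77 ± 0.60 (SD, n = 3). It was toward 5p for hsa-mir-28 in 3 of 3 libraries and many times its spread. The size of this difference depends on the 5p counts of hsa-mir-151a, which are uncertain as said above. The exact two-sided sign-flip permutation test gave p = 0.25, the smallest that 3 libraries allow, so the test could not pass a threshold of 0.05.

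Counts that fell in a hairpin but outside its listed arms were found for hsa-mir-708 in particular. They made up 28 of 361 counts in replicate 1, or 7.76% (5.42 to 11.0), 54 of 521 in replicate 2, or 10.4% (8.03 to 13.3), and 21 of 329 in replicate 3, or 6.38% (4.21 to 9.56). The mean of 8.17% ± 2.02 (SD, n = 3) was above that of 97.3% of the 183 hairpins with both arms listed in a single row each, whose median was 0.0462%. hsa-mir-151a had 1, 5 and 15 such counts of 31728, 22574 and 20294. hsa-mir-28 had 0 of 3979 and 0 of 5704 in replicates 1 and 2, and a count of 0, taken to stand for up to 3 counts, allows shares of up to 0.0754% and 0.0526%. It had 1 of 7432 in replicate 3. All counts of hsa-mir-151b were in its mature strand, but there were only 19, 8 and 22 of them. By the same rule they allow shares outside it of up to 15.8%, 37.5% and 13.6%. The lengths behind these counts, from which cut sites could be read, were not analysed here.

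The members of the family varied between libraries in different directions. The level of hsa-mir-151a over that of hsa-mir-28 was 7.62-fold, 3.78-fold and 2.61-fold in hairpin FPKM in replicates 1, 2 and 3, a mean of 4.67 ± 2.62 (SD, n = 3). On the deposited scale the sum of the 4 hairpins varied less, with 32035, 29645 and 27264 FPKM. The sum was not computed after the median-of-ratios scaling used below. That scaling raised the coefficient of variation of the hsa-mir-151a hairpin from 18.3% to 36.6%, and lowered that of hsa-mir-28 from 33.3% to 18.3%. Both arms of miR-28 were lowest in replicate 1. The log2 ratio of replicate 3 to 1 was 1.03 for miR-28-5p and 1.02 for miR-28-3p, where the median was 0.51, and that of 72.7% and 71.8% of the 330 miRNAs was lower. For miR-151a-5p it was 0.68, close to the median.

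miR-151a-3p went the other way. Its log2 ratio was -0.30 for replicate 2 to 1 and -0.54 for replicate 3 to 1, and 13.03% of the 330 miRNAs had a lower ratio in the former. The arms of this hairpin therefore differed from replicate 1 in opposite directions on the deposited scale, in both other libraries. Opposite directions were also seen for miR-708, with 0.95 for miR-708-5p and -0.85 for miR-708-3p in replicate 3 against 1, but not in replicate 2 against 1, where the ratios were 1.48 and 0.07. In replicate 3 against 2 the log2 ratios of miR-708-5p and miR-708-3p were -0.53 and -0.93, and 1.82% and 0.909% of the miRNAs had lower ratios. The part of the replicate 1 library in these differences was not tested.

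**Figure D4:**
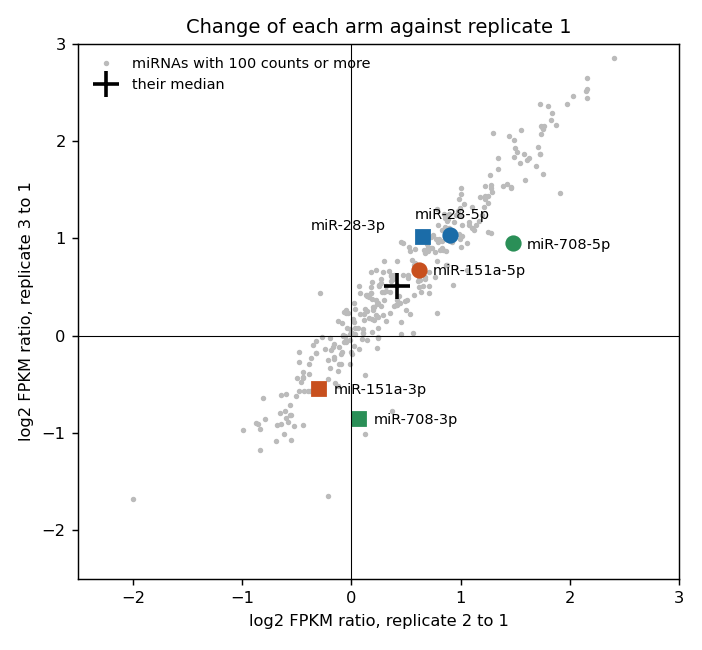
Log2 ratio of FPKM to replicate 1 for replicate 2 (x axis) and replicate 3 (y axis), with 330 miRNAs of at least 100 counts in every library in grey and their median at 0.42 and 0.51 as a cross. Circles are 5p and squares 3p arms of the family, and miR-151a-3p lies below 0 on both axes while both arms of miR-28 lie beyond the median. 1 of the 330 points lies outside the axes.

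The coefficient of variation over the 3 libraries was 34.2% for miR-28-5p, 33.5% for miR-28-3p, 23.9% for miR-151a-5p and 18.9% for miR-151a-3p. It was 46.9% for miR-708-5p, 31.6% for miR-708-3p and 43.0% for miR-151b. The 163 miRNAs that reached 1000 counts in each library had a median of 29.1%. Of the members, only both arms of miR-28 and miR-151a-3p reached that count. For the 330 miRNAs that reached 100 counts in each library, which leaves out miR-151b, the median was 25.2%. Dividing each library by its median-of-ratios size factor changed which arms varied least. It lowered the value to 17.1% for miR-28-5p, 16.1% for miR-28-3p and 5.19% for miR-151a-5p, and raised it to 41.02% for miR-151a-3p. The median of the 163 miRNAs was then 21.7%. The values after scaling were 35.9% for miR-708-5p, 44.4% for miR-708-3p and 46.4% for miR-151b. miR-151a-3p thus had the lowest value of the 7 arms as deposited, and after scaling only miR-708-3p and miR-151b were higher.

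The miRNAs nearest to each arm in level were found by the root mean square difference of log2(FPKM + 1) over the 3 libraries, as a description of these libraries. Nearest to miR-28-3p were miR-660-5p at 0.10, miR-15b-3p at 0.12 and miR-23b-3p at 0.14. Nearest to miR-28-5p were miR-200c-3p at 0.11, miR-328-3p at 0.13 and miR-542-3p at 0.18. miR-200c-3p is known as an epithelial miRNA. Nearest to miR-151a-5p were miR-33b-3p at 0.09, miR-30c-1-3p at 0.13 and miR-664a-3p at 0.16. miR-151a-3p had no such close neighbour beyond miR-4497 at 0.20, which was also highest in replicate 1 and lowest in replicate 3, with 151945, 111882 and 80382 FPKM, and miR-223-5p at 0.39 and miR-340-5p at 0.47 followed. Nearest to miR-708-5p were miR-1306-5p at 0.24, miR-499a-5p at 0.26 and miR-153-3p at 0.27. Nearest to miR-708-3p were miR-1291 at 0.30, miR-548u at 0.31 and miR-7706 at 0.35. Nearest to miR-151b were miR-639 at 0.19, miR-5587-3p at 0.31 and miR-5680 at 0.33.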

How the data were processed

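Small RNA of 3 replicate samples was sequenced on an Illumina HiSeq after NEB library preparation. The authors counted aligned reads over miRBase release 21 mature strands and primary transcripts, and deposited raw counts and FPKM in 2 tables. The submitters' processing notes name Novoalign 2.08.03 and the builds mm10 and hg19. The tables hold no coordinates, so those given here are of GRCh38. Counts and FPKM of replicate 1, with a library total fitted to them, gave whole feature lengths, which were 1 base under the RefSeq length for the 3 arms with a sequence (21, 21 and 22 against 22, 22 and 23), so FPKM of short arms is set slightly high.

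Every mature name in the deposited table had at least 10 counts in some library, so lower miRNAs were not analysed here. Rows of a mature name were summed, and every member arm had 1 row. Arms were compared on counts in edgeR 4.0.16 (R 4.3.3; quasi-likelihood test), with the library as a block and the mature total as library size, over pairs with at least 1 count of each arm in every library. Adjusted p-values cover all pairs. Limma 3.58.1 on log2 ratios of FPKM with a pseudocount of 1 and DESeq2 1.42.0 were alternatives. The edgeR test was tested on simulated data of 700 features, where it recovered 73% of changes of 1 and 100% of changes of 3 on the log2 scale. In that simulation 100 features were changed at each size, and recovery needed an adjusted p under 0.05 and the right direction. No minimum size was applied there, unlike in the calls, so these shares are not the rate of calls. Most simulated features had no arm difference, whereas 82.1% of the 195 hairpins were called, so the simulated setting was unlike these data. Intron positions refer to the coding transcript of the host with the most exonic bases. Log2 ratios between libraries used log2(FPKM + 1). The libraries were checked for repeat deposits of the same library, and none was found (chi-square per degree of freedom of at least 352 between libraries). This does not show that they came from separate cultures. Python 3.11.15, scipy 1.17.1, pandas 2.3.3 and matplotlib 3.10.9 did the rest. Members and lists were chosen with earlier results of these data known. Named miRNAs were all member arms, the 3 nearest in level to each, sharers of a listed seed, and the hairpins next to a member in arm ratio. The last were given for hsa-mir-28 and hsa-mir-151a. For hsa-mir-708 they were hsa-miR-3157 at 0.16 and hsa-miR-671 at -0.02.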

Additional observations from a re-analysis of the deposited data

How the results depend on the processing

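Of 130 values recomputed under an alternative, 115 were counted as kept. Kept meant the same direction and side of the threshold for a tested arm ratio, a move within the SD between replicates for a level, a ratio of levels or a share, and a value within 1.5 times for a count of hairpins or a coefficient of variation. Leaving out a replicate cannot move a mean by more than the SD of the same libraries. Such values for levels, ratios of levels and shares were therefore bound to be kept, and are among the 115. The number of hairpins called lay between 124 of 148 with at least 10 counts of each arm and 166 of 195 with TMM factors, and from 141 to 168 with a replicate left out, against 160. TMM factors shifted the median log2 ratio by -0.67 and moved the calls from 79 toward 5p and 81 toward 3p to 71 and 95. DESeq2 size factors shifted it by 0.10 and gave 84 and 78. hsa-mir-151a and hsa-mir-28 were called toward 3p in each of these fits, with ratios of -6.69 and -1.92 under TMM factors. The adjusted p of hsa-mir-28 was 0.0437 without replicate 2. The ratio of hsa-mir-708, 0.04 with all libraries, changed sign to -0.036 with limma and -0.61 with TMM factors, and ran from -0.33 to 0.56 with a replicate left out, without being called. The cause was not tested.

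Coefficients of variation moved by over 1.5 times in 11 cases. After median-of-ratios scaling they were 17.1% for miR-28-5p, 16.1% for miR-28-3p, 5.19% for miR-151a-5p and 41.02% for miR-151a-3p. With a replicate left out they ran from 6.19% to 48.5% for miR-28-5p and from 17.8% to 47.9% for miR-28-3p, from 3.16% to 32.7% for miR-151a-5p, from 12.1% to 26.3% for miR-151a-3p, from 16.2% to 62.6% for miR-151b, from 25.5% to 66.7% for miR-708-5p and from 3.57% to 44.0% for miR-708-3p. The lowest of these values were those without replicate 1 for both arms of miR-28, both arms of miR-151a and miR-708-5p. Without replicate 1 the median of the 163 miRNAs with at least 1000 counts in each library was 8.46%. Counts of miR-151b and of both arms of miR-708 limit what can be said of them.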
